A study of Mus musculus with 2 samples.

Results

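The 5 genes of the Ikaros family, Ikzf1 to Ikzf5, were followed through H3K27ac ChIP-seq peak lists of mouse leukaemia cells with and without Gata2. They were taken by name from 21887 protein-coding genes, and each was viewed with 50 kb on both sides in mm10. H3K27ac, acetylation of histone H3 at lysine 27, marks active promoters and enhancers. The cells were MA9 leukaemia cells, which carry the MLL-AF9 fusion, and were collected from the bone marrow of primary animals. One group kept its floxed Gata2 gene (Gata2 f/f, 1 library) and the other lacked Gata2 (Gata2 -/-, here KO, 1 library). Per the labels, cells were transduced with Cre or with the control MIT, sorted for GFP and tdTomato, and grown for 7 to 9 days with IL-3, IL-6 (10 ng/mL) and SCF (20 ng/mL) before ChIP. Neither the labels nor the file headers give the animals' age or strain, or say whether cells were pooled. With 1 library per group no difference has a replicate check and no test was possible, so that every comparison describes these 2 libraries.

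Ikaros family proteins are zinc finger transcription factors. Their amino-terminal fingers bind DNA, and the carboxy-terminal pair of fingers joins family members into dimers. Ikaros (Ikzf1) is needed for lymphoid development and also acts in myeloid cells and in stem and progenitor cells. Helios (Ikzf2) is known from regulatory T cells and has been linked to the self-renewal of leukaemia stem cells. Aiolos (Ikzf3) acts in B cell maturation, Eos (Ikzf4) works with Foxp3 in regulatory T cells, and Pegasus (Ikzf5) is the most divergent member. Ikaros and Aiolos recruit the NuRD chromatin remodelling complex. In human cells they are degraded through the cereblon ubiquitin ligase in the presence of thalidomide analogues.

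The promoter table used here, from RefSeq (GRCm38.p6, the assembly of mm10), matched 2 of the 5 genes, with 3 windows of 300 bases. Parts of these windows are shown because peaks of both lists touched all 3, and because the starts differ in base composition. Each sequence is 5′ to 3′ on the strand of its gene, with CpG dinucleotides in capitals. The first Ikzf1 stretch, on the plus strand, holds the 150 bases before the start site at position 11685925 of chromosome 11 (chr11:11685775-11685924). The other holds the 150 bases before the downstream start at 11690177 (chr11:11690027-11690176). The Ikzf5 stretch is the 82 bases between Ikzf5 and its neighbour Acadsb (chr7:131410519-131410600, minus strand). The table of start sites holds no exons, so that exons of other transcripts cannot be placed.
Ikzf1, upstream start: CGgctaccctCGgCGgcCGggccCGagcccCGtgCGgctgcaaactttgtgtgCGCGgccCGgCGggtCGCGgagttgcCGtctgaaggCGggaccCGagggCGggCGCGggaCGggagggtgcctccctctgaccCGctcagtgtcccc
Ikzf1, downstream start: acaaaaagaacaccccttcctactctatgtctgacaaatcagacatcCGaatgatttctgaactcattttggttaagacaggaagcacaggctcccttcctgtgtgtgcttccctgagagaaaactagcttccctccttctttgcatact
Between Ikzf5 and Acadsb: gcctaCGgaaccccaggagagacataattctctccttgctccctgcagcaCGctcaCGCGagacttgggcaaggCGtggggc

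The upstream Ikzf1 window had 52 CpG dinucleotides and a GC content of 81.3%, and all 300 bases lay under a peak in f/f and in KO. The downstream Ikzf1 window had 2 CpG dinucleotides and a GC content of 49%, and 192 of its bases lay under the f/f peak and 76 under the KO peak. That window therefore sits at the edge of a peak that extends into the gene. The Ikzf5 window had 27 CpG dinucleotides, a GC content of 65.7% and all 300 bases under peaks of both lists. The 82 bases printed from it had 5 CpG dinucleotides and a GC content of 62.2%. Over all 32851 windows of the table the median was 7 CpG dinucleotides and 52.7% GC, and 34.5% touched a peak in both lists. A GATA motif (the letters GATA with A or T before them and A or G after them, on either strand) was in none of the 3 windows and in 29.8% of all windows. The letters GGGAA, the core that Ikaros is known to bind, occurred on either strand 2 times in the downstream Ikzf1 window and not in the upstream Ikzf1 window. In the Ikzf5 window they occurred 1 time, outside the 82 bases printed. They occurred in 62.7% of all windows, and a match of letters is a description, not a site.

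The f/f list held 34272 peaks on chromosomes 1 to 19, X and Y and the KO list 37234, and the read depth behind them is unknown. Each peak carries a fold enrichment and a -log10 p-value that are the authors' own and describe or rank peaks within a list. The f/f list had a median -log10 p of 12.2 and the KO list of 9.41, and a peak is called strong here when it reached its list's median. At Gata2, the targeted gene, 12.2% of the 50 kb window lay under peaks in f/f and 7.46% in KO. Sex-linked loci also set the libraries apart, with a gene-end peak at Xist in f/f alone and at Uty, Kdm5d and Eif2s3y in KO alone, and this difference cannot be told apart from genotype. All 5 Ikaros family genes lie on autosomes. Of 10 marker genes of myeloid progenitors and leukaemia, 7 had a peak within 1 kb of a gene end in both lists and 3 (Hoxa9, Meis1 and Mpo) in f/f alone. Their windows held 148 kb under peaks in f/f and 140 kb in KO, in a range of 2.40% to 25.8% and of 3.82% to 22.0%. By window coverage, Csf3r (6.31% in f/f, 9.85% in KO) and Kit (2.40% and 3.82%) were higher in KO by 1.5-fold or more. No other marker of this list differed by that much in either direction. Of all tested genes, 11.7% were higher by that much. Of the B cell markers, Cd79a had a gene-end peak in both lists (window coverage 7.96% in f/f, 10.6% in KO) and Cd79b in f/f alone (5.14% and 2.72%). Pax5 (0.784% and 0.785%), Ebf1 (0.569% and 0%) and Ms4a1 had one in neither. Of 7 T cell markers, 2 had one in both lists (Cd3d and Cd4) and 5 in neither, with 31.9 kb (0% to 9.13%) in f/f and 36 kb (0% to 12%) in KO. Ms4a1 and Bcl11b had no peak in their windows in either list. Of 6 stromal and endothelial markers, 4 had a gene-end peak in neither list, Pecam1 had one in f/f alone and Cxcl12 in KO alone. Their windows held 46.8 kb in each list, at 0.831% to 14.5% in f/f and 0.576% to 15.2% in KO. The pan-leukocyte gene Ptprc had a gene-end peak in both, with 5.83% of its window covered in f/f and 3.85% in KO. The part of other cells in the values that follow was not tested, and fewer marked cells cannot be told apart from less mark per cell.

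With all peaks counted, Ikzf2 was the most heavily marked family member, Ikzf1 came next, and Ikzf3 was the least marked. Window coverage is the share of a window's bases that lie under peaks, the window being the gene with 50 kb on each side. It was 14.1% at Ikzf2 in f/f and 12.5% in KO. At Ikzf1 it was 8.34% in f/f and 9.14% in KO. Ikzf5 had 6.79% and 5.2%, Ikzf4 6.59% and 6.35%, and Ikzf3 3.30% and 3.07%. The order Ikzf2, Ikzf1, then Ikzf5 and Ikzf4, then Ikzf3 held in f/f, and in KO Ikzf4 stood above Ikzf5. The order depended on the peaks counted. At a fold of at least 3, the whole windows of Ikzf4 (6.06% in f/f, 6.04% in KO) and Ikzf5 (5.25% and 5.2%) were highest and Ikzf2 (1.04% and 0.384%) lowest. Peaks at the ends of neighbouring genes, all above that fold, made up 5.92 kb (f/f) and 6.48 kb (KO) of the Ikzf4 window. For Ikzf5 they made up 2.62 kb and 2.52 kb. With these left out and every fold counted, coverage fell to 2.33% (f/f) and 1.68% (KO) for Ikzf4, and to 4.64% and 3.14% for Ikzf5. The order at a fold of at least 3 without them is not given. With 1 library per group the spread of these levels is unknown, so that it cannot be said which members adjacent in any of these orders differ.

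Coverage was lower in KO at 4 members and higher at 1, by amounts that stayed under 1.5-fold at all 5. Across 16744 protein-coding genes with at least 1000 bp covered in either list, 7203 were lower in KO by any amount and 9536 higher. Of these genes, 20.2% differed by 1.5-fold or more, 8.46% being lower in KO and 11.7% higher. The members' differences (KO minus f/f) were 0.796 percentage points at Ikzf1, -1.61 at Ikzf2, -0.235 at Ikzf3, -0.246 at Ikzf4 and -1.59 at Ikzf5. Their median was -0.246 points, against 0.159 over all tested genes, whose quartiles were -0.451 and 1.08. Ikzf2 and Ikzf5 lay below the lower quartile, and the other members between the quartiles. The direction held under the 7 alternatives tried for Ikzf2 and Ikzf3 alone. Ikzf1 was lower in KO under all 4 choices that kept fewer peaks, with -0.458 points when both lists were cut to equal length and -2.14 for peaks of at least 3-fold enrichment. At that enrichment Ikzf1, Ikzf2 and Ikzf3 were lower by 1.5-fold or more, as were 23.3% of all genes.

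**Figure D1:**
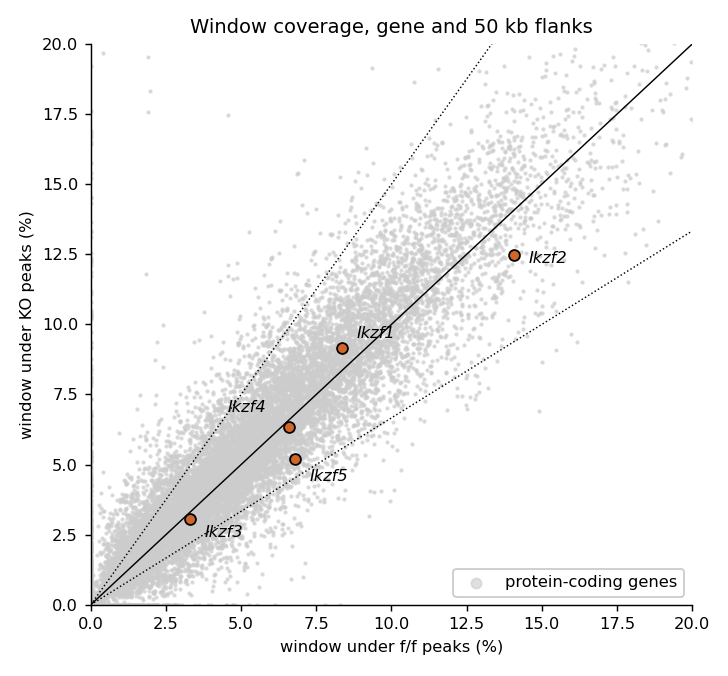
Window coverage (percent of bases) in f/f (x axis) and KO (y axis), with each grey point a protein-coding gene with at least 1000 bp covered and the 5 Ikaros family genes in orange. The solid line marks equal coverage, the dotted lines a 1.5-fold difference, and 111 genes above 20% in either list lie outside the axes. All 5 members lie between the dotted lines, Ikzf2 and Ikzf5 below the solid line and Ikzf1 above it.

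Ikzf1, Ikzf2 and Ikzf5 had a peak within 1 kb of a gene end in both lists, and Ikzf3 and Ikzf4 had none in either. Over all protein-coding genes, 47.6% had a gene-end peak in both lists and 47% in neither. Beyond their own ends, the members differed in where their marked bases lay. In f/f, Ikzf1 had 1.80 kb in its gene-end peak, 6.25 kb in other peaks inside the gene and 6 kb in distal peaks of the flanks. In KO these were 2.82 kb, 8.13 kb and 4.51 kb, so that the gene-end and inner peaks covered more and the distal peaks less. Ikzf2 had 12.1 kb, 19.5 kb and 4.42 kb in f/f, and 3.93 kb, 25.7 kb and 2.34 kb in KO. The gene-end value covers 1 long peak in f/f, which 4 shorter KO peaks overlapped, 3 of them counted as inner peaks. Ikzf3 and Ikzf4 owed most of their window coverage to other genes, with 3.96 of 5.99 kb and 5.92 of 9.15 kb in f/f at the ends of neighbours. In KO these parts were 3.72 of 5.56 kb and 6.48 of 8.81 kb.

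**Figure D2:**
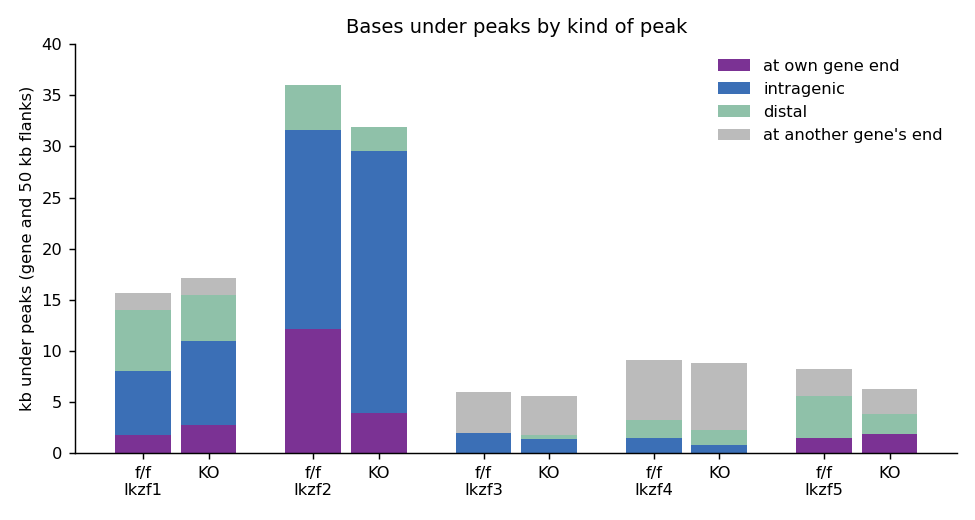
Kilobases under peaks in each member's window (y axis), f/f and KO side by side, split into peaks within 1 kb of the member's own ends, other peaks inside the gene, distal peaks and peaks within 1 kb of the end of another protein-coding gene. Ikzf2 reaches 36 kb in f/f and 31.9 kb in KO, Ikzf1 15.7 and 17.2 kb, and the grey part makes up most of Ikzf3 and Ikzf4.

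Ikzf1 (chromosome 11, 11684962 to 11772930) had fewer bases under peaks before the gene and more inside it in KO, with all peaks counted. The flank below its lower coordinate, which lies upstream of both start sites, had 4.31 kb under f/f peaks and 1.85 kb under KO peaks. Both lists had 3 shared peaks there, ending 26.8, 16.5 and 5.07 kb before the gene in f/f. A weak f/f call (442 bp, -log10 p 4.77) had no KO peak over it. The 3 shared peaks had f/f widths of 1878, 1002 and 985 bp and KO widths of 973, 413 and 461 bp, each narrower by more than 1.5-fold. The farthest was a strong call in f/f (-log10 p 25.4, 11656239 to 11658116), and all 3 KO calls lay below their list's median. Under all 4 choices that kept fewer peaks the flank had less coverage in KO, by -2.46 to -2.89 kb (KO minus f/f).

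Inside Ikzf1 the direction was the opposite, where f/f peaks covered 8.05 kb and KO peaks 11.0 kb, a difference under 1.5-fold. The peak over the upstream start site ran from 11685210 to 11687009 in f/f (1800 bp) and from 11685324 to 11688145 in KO (2822 bp), and was strong in both lists. The peak beginning at the downstream start measured 2146 bp (f/f) and 2591 bp (KO), also strong in both. Further inside, a peak 23.4 kb from the gene's lower end measured 454 bp (f/f) and 1562 bp (KO), a weak call in both lists. A peak 77.8 kb inside the gene was of nearly the same width, 1131 and 1126 bp, and strong in both lists. No other peak inside the gene reached a fold of 3 in either list, so that the larger KO coverage there was not seen at that fold. KO alone had a weak call at 84.3 kb (419 bp, -log10 p 3.80). In the upper flank, both lists had a strong peak at the end of Fignl1, an ATPase gene, of 1634 bp (f/f) and 1720 bp (KO). A weak f/f call of 488 bp, 15.5 kb above the gene (-log10 p 10.2), had no KO counterpart.

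**Figure D3:**
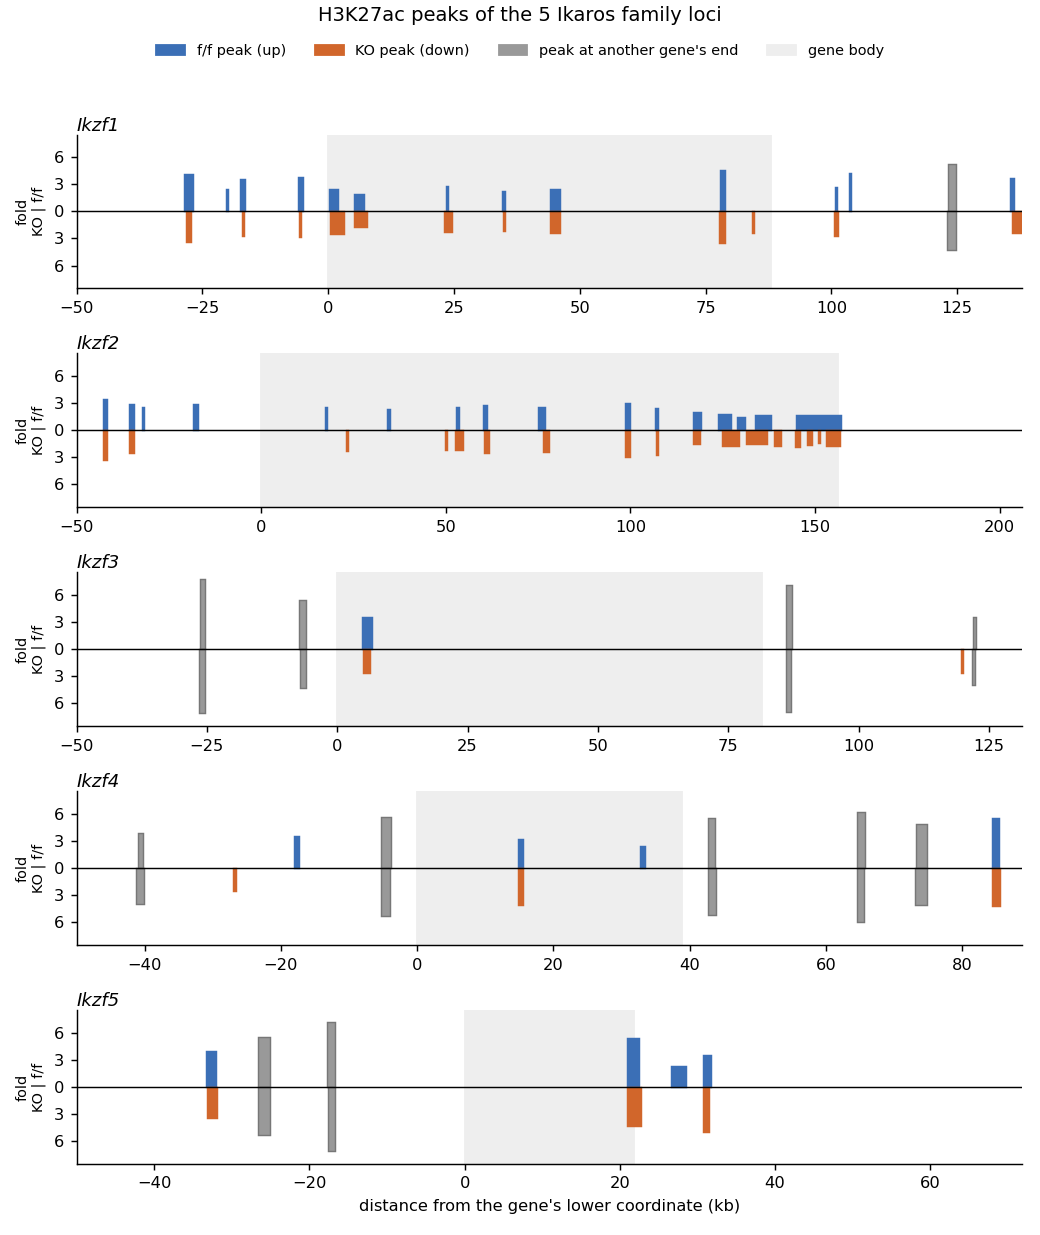
Peaks along each member's window (x axis, kb from the gene's lower coordinate), f/f upward and KO downward, bar height giving the authors' fold enrichment and bar width the peak width, with the gene shaded and peaks at the ends of other genes in grey. Heights serve within a list. The 3 shared peaks before Ikzf1 are narrower in KO, and the upper end of Ikzf2 carries broad, low bars in both lists.

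Ikzf2 (chromosome 1, 69531207 to 69687351) carried a long acetylated stretch at its upper end in both libraries. In f/f a single peak of 12149 bp (69675983 to 69688131) covered that end and was the third widest of all 34272 f/f peaks, though its -log10 p of 12.1 was just under the list's median. In KO the same stretch held 4 peaks, of 3931, 524, 1278 and 1247 bp, the first of them at the gene end. A further KO peak of 5713 bp (69662596 to 69668308) overlapped an f/f peak of 4509 bp, and these ranked 49 and 203 by width in their lists. The last 40 kb of the gene, a stretch chosen after its values were seen, had 23.5 kb under 5 peaks in f/f (58.7%) and 20.5 kb under 8 peaks in KO (51.3%). Its final 10 kb were covered throughout in f/f and for 5.01 kb in KO. The bin from 20 to 30 kb inside the gene went the other way, with 5.72 kb in f/f and 7.98 kb in KO. KO had 1 strong peak in this stretch that no f/f peak overlapped (69669960 to 69671835, -log10 p 10.5). It was the one strong peak found in 1 list alone in all 5 windows, but it lay within 1000 bp of an f/f peak and does not count as alone where such nearness is barred.

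The peaks of this stretch were wide but of low enrichment. Their fold ran from 1.5 to 2.00 in f/f and from 1.38 to 1.81 in KO, with 4 of 5 f/f peaks and 8 of 8 KO peaks under 2. In the whole lists, 1.60% of f/f peaks and 2.85% of KO peaks had a fold under 2, and their median widths were 1024 bp (f/f) and 1141 bp (KO). No peak of the stretch remained in either list at a fold of at least 3. The -log10 p ran from 8.96 to 15.0 in f/f and from 4.61 to 12.6 in KO. The difference of the stretch, KO minus f/f, was -2.96 kb over all peaks and -5.54 kb with a -log10 q of at least 5.

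**Figure D4:**
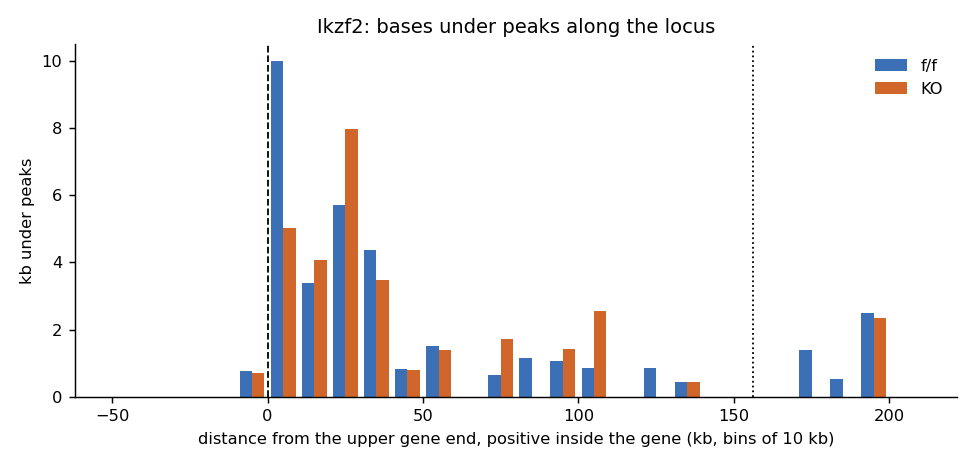
Kilobases of Ikzf2 under peaks in bins of 10 kb (y axis) by distance from the gene's upper end (x axis, positive inside the gene, dashed line at the upper and dotted line at the lower gene end), f/f in blue and KO in orange. The first bin inside the gene is covered for 10 kb in f/f and 5.01 kb in KO, and coverage of both lists falls off beyond 40 kb.

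Away from that end, Ikzf2 had scattered and mostly weak peaks. No other protein-coding gene has an end in its window. The flank beyond the lower end held 4 distal peaks and 4.42 kb in f/f, and 2 peaks and 2.34 kb in KO. Both KO peaks were shared, with widths in f/f and KO of 1158 and 984 bp for the farther and 1335 and 1358 bp for the nearer. The f/f peaks without a counterpart ended 31.8 and 17.0 kb before the gene and were weak (-log10 p 7.76 and 6.18). At a fold of at least 3 the difference of this flank was -0.174 kb. Inside the gene, f/f alone had weak calls 17.2 and 33.9 kb from the lower end and KO alone at 22.9 and 49.8 kb.

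Ikzf3 (chromosome 11, 98464610 to 98546031) had 1 peak of its own in each list, inside the gene 4.73 kb from its lower coordinate. It ran from 98469340 to 98471367 in f/f (2028 bp) and from 98469524 to 98470959 in KO (1436 bp). It was strong in f/f (-log10 p 20.3) and weak in KO (4.66), and at a fold of at least 3 or a -log10 q of at least 5 it was found in f/f alone. Neither end of the gene had a peak within 1 kb. The other peaks stood at Erbb2 and Mien1, at Mien1, at Zpbp2 and at Ormdl3, all 4 shared by both lists. Erbb2 encodes a receptor tyrosine kinase and Ormdl3 a regulator of sphingolipid synthesis. These 4 pairs had width ratios (KO over f/f) between 0.836 and 1.11. KO alone had a weak distal call of 410 bp within Ormdl3 (-log10 p 4.15). Grb7, an adaptor gene between Erbb2 and Ikzf3, had no gene-end peak.

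Ikzf4 (chromosome 10, 128630839 to 128669671) shared 1 inner peak between the lists, 14.8 kb from its lower coordinate. Its width was 760 bp (f/f) and 785 bp (KO), and it was weak in f/f (-log10 p 6.15) and strong in KO (10.4). A weak f/f call of 737 bp lay 32.7 kb inside the gene (-log10 p 3.33), and no KO peak overlapped it. That call made the gene body 1.5 kb, against 0.785 kb in KO, a difference that turned at a -log10 q of at least 5, where f/f had none. Most bases under peaks in this window stood at the ends of neighbours, in 5 peaks found in both lists and strong in both except at Erbb3. They stood at Erbb3, at the ribosomal protein gene Rps26, at Suox, at Rab5b and Pmel together, and at the cell cycle kinase gene Cdk2. The highest -log10 p of the window was at Rps26 in f/f (118) and at Rab5b and Pmel in KO (81.5). The Erbb3 peak measured 727 bp (f/f) and 1102 bp (KO), and the other 4 had ratios of 0.940 to 1.17.

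Ikzf5 (chromosome 7, 131388649 to 131410518) had a strong peak over the 82 bases between it and Acadsb, a fatty acid and branched-chain amino acid oxidation gene that starts on the opposite strand. The peak was 1506 bp wide in f/f (131409545 to 131411050) and 1855 bp in KO (131409537 to 131411391). Above it, 4.72 kb into the flank, f/f had a peak of 1883 bp that no KO peak overlapped, a weak call (-log10 p 6.46) that lies within Acadsb. A second peak in Acadsb was 998 bp wide and weak in f/f (-log10 p 8.25) and 672 bp wide and strong in KO (16.3). The upper flank thus had 3.41 kb in f/f and 1.55 kb in KO, and the order turned among the strongest 20000 peaks of each list, with 1.01 kb more in KO. Peaks at 2310057M21Rik and Pstk in the lower flank differed little in width, at 1541 and 1548 bp and at 1080 and 969 bp. The window as a whole had 8278 bp under f/f peaks, 1883 of them in that weak call, and 6338 bp under KO peaks. Among the strongest 20000 peaks the difference in window coverage was 0.772 points.

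Most peaks of the 5 windows were shared. The f/f list had 50 peaks there, 9 of which no KO peak overlapped (18.0%, against 16.2% of all f/f peaks). The KO list had 49, of which 6 had no f/f peak (12.2%, against 22.6% of all KO peaks). The 9 f/f peaks comprised 3 inside genes and 6 distal ones, and the 6 KO peaks comprised 4 and 2. All 15 peaks at member ends or at neighbours' ends in f/f, and all 15 in KO, were shared. Each of the 9 f/f peaks was weak, with a -log10 p of 2.97 to 10.2. Weak peaks were shared less often throughout, 29.9% of them standing alone in f/f and 40.9% in KO, against 2.52% and 4.23% of strong peaks.

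Split into lower flank, gene and upper flank, the 5 windows gave 15 stretches, 13 of them with at least 1000 bp covered in either list. Of these, 4 had coverage lower in KO by 1.5-fold or more and 0 higher. They were the lower flanks of Ikzf1 and Ikzf2, the gene body of Ikzf4 and the upper flank of Ikzf5. Among 50 kb flanks of all protein-coding genes 10.8% were lower in KO by 1.5-fold or more and 16.3% higher, against 3 lower of 9 here. Among gene bodies these shares were 12.5% and 19%, against 1 lower of 4 here. These stretches were split after their values were seen. The differences at Ikzf4 and Ikzf5 turned under 3 of the 4 choices that kept fewer peaks, all but lists of equal length, and those at Ikzf1 and Ikzf2 kept their direction under all 4. At a fold of at least 3 the Ikzf2 flank had 1.16 kb in f/f and 0.984 kb in KO, under 1.5-fold. Under all 4 choices, whole windows of all genes were also more often lower than higher in KO by 1.5-fold or more. The kept direction therefore does not set these 2 flanks apart.

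Paired 1 to 1, 38 peaks of the windows could be compared in width. In KO 3 were narrower by 1.5-fold or more and 5 wider, against 9.94% narrower and 10.3% wider of 28349 pairs in the whole lists. All 3 narrower pairs were the distal peaks before Ikzf1. The 5 wider pairs were 3 at Ikzf1 (the upstream start site, the peak 23.4 kb inside and a peak in the upper flank within Ddc), 1 inside Ikzf2 and 1 at Erbb3. The median ratio was 1.02 in the windows and 0.991 over all pairs. By bases, 76.2% of the f/f coverage at Ikzf1 lay under KO peaks too, 60.0% at Ikzf2, 80.9% at Ikzf3, 82.5% at Ikzf4 and 69.4% at Ikzf5, against 75.7% in the whole list. Ikzf2 had the lowest share of the 5.

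**Figure D5:**
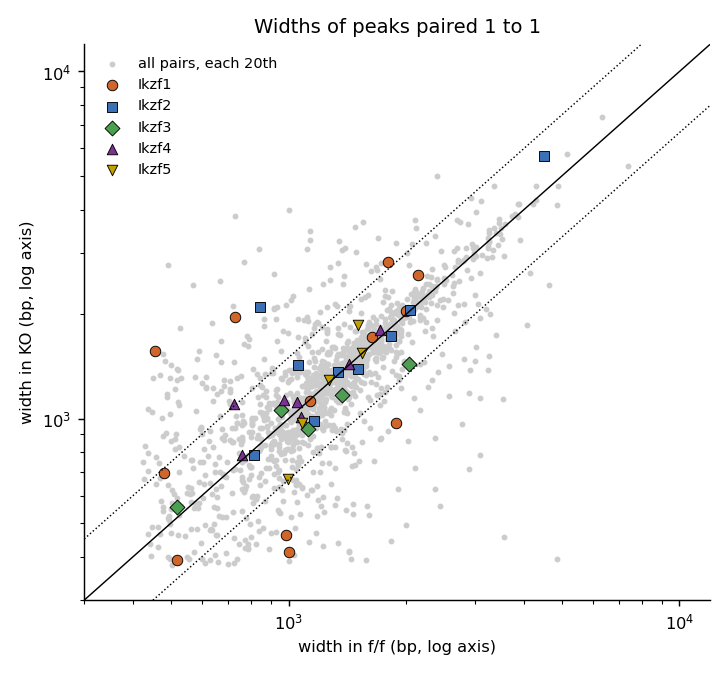
Widths of peaks paired 1 to 1 between f/f (x axis) and KO (y axis), both in bp on log axes, with the 38 pairs of the Ikaros family windows coloured by gene and each 20th of all 28349 pairs in grey. Dotted lines mark a 1.5-fold difference. The 3 pairs below the lower dotted line all belong to Ikzf1.

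For each member, the genes of a list of 58 haematopoietic transcription factors with the nearest pair of coverage values (f/f, KO) were found by Euclidean distance over the 2 libraries. Nearest to Ikzf1 were Klf6 (0.594 points away), Runx2 (0.622) and Tcf3 (1.55). Nearest to Ikzf2 were Nfe2 (2.48), Klf2 (2.57) and Cebpe (2.63). Ikzf3 lay nearest to Id2 (1.02), Gfi1b (1.08) and Tcf12 (1.13), and Ikzf4 to Id3 (0.520), Zeb2 (0.802) and Tcf7 (0.830). Ikzf5 lay nearest to Zfpm1 (0.558), Zeb2 (0.991) and Tcf7 (1.29). These distances use whole windows, and at Ikzf3 and Ikzf4 most of the covered bases lie at the ends of other genes.

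Of the corepressor partners, all 17 listed subunits of NuRD, Sin3 and CtBP corepressor complexes had a gene-end peak in both lists, as Ikzf1 did. Over all protein-coding genes 47.6% had one in both. Their median coverage difference was 0.735 points (11 higher and 6 lower in KO), against 0.159 over all genes. Of the 16744 tested genes, 9536 were higher in KO and 7203 lower. Ctbp1 alone passed 1.5-fold (1.20% in f/f, 1.93% in KO), and 11.7% of all tested genes were higher in KO by that much. The histone deacetylase gene Hdac1 (7.60% and 9.71%), the methyl-CpG binder Mbd2 (7.79% and 9.24%) and Mta1 (5.62% and 6.93%) had higher values in KO. The remodeller gene Chd3 (16.2% and 11.9%), Gatad2a (10.3% and 8.66%) and Gatad2b (6.94% and 6.53%) had lower ones. The direction of this list turned with the peaks counted, to -0.784 points at a fold of at least 3. All genes also moved toward lower coverage in KO at that fold. There 23.3% of them were lower by 1.5-fold or more and 6.88% higher, against 8.46% and 11.7% with all peaks counted.

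Of the 8 genes of the cereblon ligase and its substrates, 7 had a gene-end peak in both lists and Cul4b in neither. Over all protein-coding genes these shares were 47.6% and 47%. The median difference was -0.208 points, with 5 lower and 3 higher in KO, and 1 passed 1.5-fold. That gene was Zfp91, whose zinc finger protein is a substrate of the ligase in human cells, at 5.47% (f/f) and 3.47% (KO). Over all tested genes the median was 0.159 points, with 7203 lower and 9536 higher, and 8.46% were lower by 1.5-fold or more. Crbn, the substrate receptor of the ligase, had 4.30% and 3.13%, and Rbx1 6.60% and 5.51%. Ddb1 (5.98% and 7.69%), Cul4a (4.04% and 4.75%) and Gspt1 (3.74% and 4.23%) were higher in KO.

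Among 25 genes that Ikaros family factors are known to regulate, mostly lymphoid ones, 24 had at least 1000 bp covered in either list, and 8 of these were lower in KO by 1.5-fold or more, with 0 higher. The background of such calls was 8.46% lower and 11.7% higher. The list was chosen with earlier results of these data known, so that this contrast is a description and not an independent comparison. The median difference of the list was -0.162 points, with 13 lower and 11 higher. Over all tested genes it was 0.159 points, with 7203 lower and 9536 higher. The 8 were the receptor kinase gene Flt3 (10.3% in f/f and 4.80% in KO), the cell cycle inhibitor gene Cdkn1b (12.5% and 6.97%), Notch3 (6.06% and 2.48%), the recombination genes Rag1 (6.79% and 4.35%) and Rag2 (8.12% and 5.08%), Cd79b (5.14% and 2.72%), the Notch target Hes1 (2.70% and 1.53%) and Cd8a (1.19% and 0.502%). Cd79b and Cd8a also stand on the B and T cell marker lists above. Rag1 and Rag2 are neighbours and share bases. In percentage points, the largest differences toward KO were at Cdk6 (13.4% and 18.0%) and the surrogate light chain genes Vpreb1 (15.8% and 18.9%) and Igll1 (14.5% and 17.5%), also neighbours. The count of 8 was 7 to 10 of 24 under the 4 choices that kept fewer peaks, where 10.4% to 23.3% of all genes were lower. It was 5 of 20 with 10 kb flanks, 7 of 22 with 25 kb flanks and 2 of 24 with 100 kb flanks. Of all genes, 10.5%, 9.43% and 6.88% were lower with these flanks, so that the count with 100 kb flanks was near the background. Genes of the list higher in KO by 1.5-fold or more numbered 1 each with a -log10 q of at least 5, among the strongest 20000 peaks and with 10 kb flanks. With 25 kb flanks they numbered 2. Over all genes these shares were 8.41%, 10.1%, 13.9% and 13.1%. At a fold of at least 3, where 10 genes of the list were lower, so were 23.3% of all genes.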

How the data were processed

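H3K27ac peak lists of 1 Gata2 f/f and 1 Gata2 KO library of MA9 cells were used, grouped by the genotype in the labels. The submitters' processing notes name BWA, SAMtools, MACS2 and mm10. The format is that of broad peaks. Versions, options, the control library and duplicate handling are not stated in any label or header. Deposited columns hold a score (not used), the fold enrichment as a ratio, and the p-value and q-value as -log10. More reads give more and wider calls, so that covered bases can move with depth, which is unknown. Only autosomes 1 to 19 and the sex chromosomes entered, and peaks overlapped when they shared 1 bp. Genes came from a table of GRCm38.p6, without exons. Gene-end peaks lay within 1000 bp of either end, and distal peaks lay outside the gene. Covered bases were computed in Python 3.11.15, checked with bedtools 2.31.1 and tested on simulated data. A gene was called at 1.5-fold or more. The members and lists were chosen with earlier results of these data known. Named list genes are those past 1.5-fold and, per list and direction, the 3 with the largest difference. Alternatives were: the strongest 34272 peaks of each list (equal numbers), the strongest 20000, peaks of at least 3-fold enrichment, a -log10 q from 5 upward, flanks of 10, 25 and 100 kb, gene-end windows of 500 and 2000 bp, other overlap rules and a 2-fold threshold. One B cell marker is not reported here.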

Additional observations from a re-analysis of the deposited data

How the results depend on the processing

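With 1 library per group there is no replicate spread, and read depth, which would limit weak and wide calls, is unknown. Coverage differences are in percentage points, KO minus f/f. With a -log10 q of at least 5 they were -1.34, -4.23, -1.25, 0.526 and -0.0468 for Ikzf1 to Ikzf5, with 2 members lower by 1.5-fold or more (13.0% of all genes). In the 5 windows 12 f/f and 3 KO peaks stood alone, and list medians were -0.0470 (NuRD), 0.114 (cereblon) and -0.370 (lymphoid). With at least 3-fold enrichment the differences were -2.14, -0.654, -1.25, -0.0216 and -0.0468, with 3 members lower by 1.5-fold or more (23.3% of all genes). There were 7 f/f and 0 KO peaks alone, 1 member with a gene-end peak in both lists (Ikzf5) and medians of -0.784, 0.136 and -0.667. The strongest 20000 peaks gave -0.946, -2.83, -0.967, 1.55 and 0.772, and medians of -0.0470, 0.185 and -0.471. The same number of peaks gave -0.458 at Ikzf1 and -2.78 at Ikzf2, and medians of 0.324 (NuRD) and -0.451 (lymphoid). With 10 kb flanks the differences were 2.21, -1.16, -0.962, -0.923 and -4.44, with 1 member lower by 1.5-fold or more (Ikzf5, and 10.5% of all genes). Then 4 f/f and 4 KO peaks stood alone, and medians were 0.486 (NuRD) and -0.826 (lymphoid). With 25 kb flanks Ikzf3, Ikzf4 and Ikzf5 had -0.743, -1.39 and -2.74, 1 member (Ikzf5) was lower by 1.5-fold or more (9.43% of all genes), and the cereblon and lymphoid medians were 0.152 and -0.871. With 100 kb flanks the differences were 0.0483, -1.84, -0.0405, 0.801 and -0.676, with 13 f/f and 11 KO peaks alone and medians of 0.192 (NuRD) and -0.396 (cereblon). When at least 50% of a peak had to be overlapped, 13 f/f and 10 KO peaks stood alone. The share of all peaks alone is not given for these choices, so that such counts cannot be set against the whole lists. Nor is the median difference over all genes, so that a turn of a list median cannot be called particular to that list. Added after seeing the data, leaving out peaks at other genes' ends gave -0.100 at Ikzf3 and -0.655 at Ikzf4. In kb, KO minus f/f, the gene body of Ikzf4 turned to 0.785 (q of at least 5, and strongest 20000) and 0.025 (3-fold), and the upper flank of Ikzf5 to 0.015 (q of at least 5, and 3-fold) and 1.01 (strongest 20000). The cause of these changes was not tested. No paired analysis was possible because each group has 1 library.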
